A study of Mus musculus with 3 samples.

Results

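The regions described here are the H3K4me3 peaks of mouse chromosome 15 in ovary, selected on their chromosome as every row of the deposited H3K4me3 peak list with chr15. The chromosome itself was chosen by the length and tags of its H3K4me3 peaks in this same library, so comparisons of these values with the other autosomes are a description. They numbered 768 of the 9929 H3K4me3 peaks in the list, and 9149 peaks on the 18 other autosomes (chr1 to chr14 and chr16 to chr19) served for comparison. The study profiled ovary of 8 weeks old wild type C57BL/6 J mice by chromatin immunoprecipitation and sequencing, with 1 library for H3K4me3, 1 for the protein BNC1 and 1 of input DNA. All 3 samples therefore shared genotype, strain, tissue and age and differed in the antibody, and the labels do not say how many animals gave the tissue. Peak lists were analysed for H3K4me3 and BNC1. No library had a replicate, so the values below describe these libraries, no p-value was computed, and the intervals given are 95% intervals of counting error. Coordinates are in mm9, the build named in the submitters' processing notes, and genes are not named, as a gene annotation of mm9 was not used here.

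H3K4me3 is trimethylation of lysine 4 of histone H3, a mark deposited at the promoters of active or poised genes, where it usually covers the first nucleosomes around the transcription start. A peak caller looks for stretches of the genome where the tags of an immunoprecipitated library stand above a local background. BNC1 (basonuclin 1) is a zinc finger protein of germ cells and some epithelia that binds DNA, and its list came from a separate immunoprecipitation. Tags are sequenced reads inside a peak, and tags per kb are the tags of a peak divided by its length. Fold enrichment is the caller's ratio of tags over the background it expected. Tags per kb divided by fold enrichment gave a value called the background index, in tags per kb. It is calculated from these values and is not a measured background. Peaks of equal length, tags and p-value score could differ in it. The BNC1 peaks chr15:20960936-20961076 and chr15:50876058-50876198 both had 141 bp, 8 tags and a p-value score of 43.64. Their fold enrichments were 11.71 and 6.69 and their indices 4.85 and 8.48.

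Chromosome 15 carried longer and more tag-rich H3K4me3 peaks than any other autosome, and its peaks had the lowest fold enrichment. The median peak length was 663 bp (quartiles 401 and 1152 bp) on chromosome 15 and 379 bp (294 and 512 bp) on the other autosomes, a ratio of 1.75. The median number of tags was 93 (50 to 182) against 44 (32 to 63), a ratio of 2.11. Since longer peaks hold more tags, the per-length value differed less, with medians of 137 tags per kb (120 to 157) and 116 tags per kb (108 to 126), a ratio of 1.18. Median fold enrichment was 5.71 (4.72 to 7.38) on chromosome 15 and 7.35 (6.35 to 8.46) elsewhere. The background index went the other way from the enrichment, with medians of 24.6 (17.5 to 31.7) and 15.9 (13.7 to 18.6) tags per kb. Among the 19 autosomes, chromosome 15 ranked 1 for length, tags, tags per kb and background index, and 19 for fold enrichment. The medians of the 18 other autosomes ran from 296 bp (chr14) to 475 bp (chr19) for length and from 108 (chr16) to 124 (chr19) for tags per kb, so the chromosome 15 medians lay outside both ranges.

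**Figure D1:**
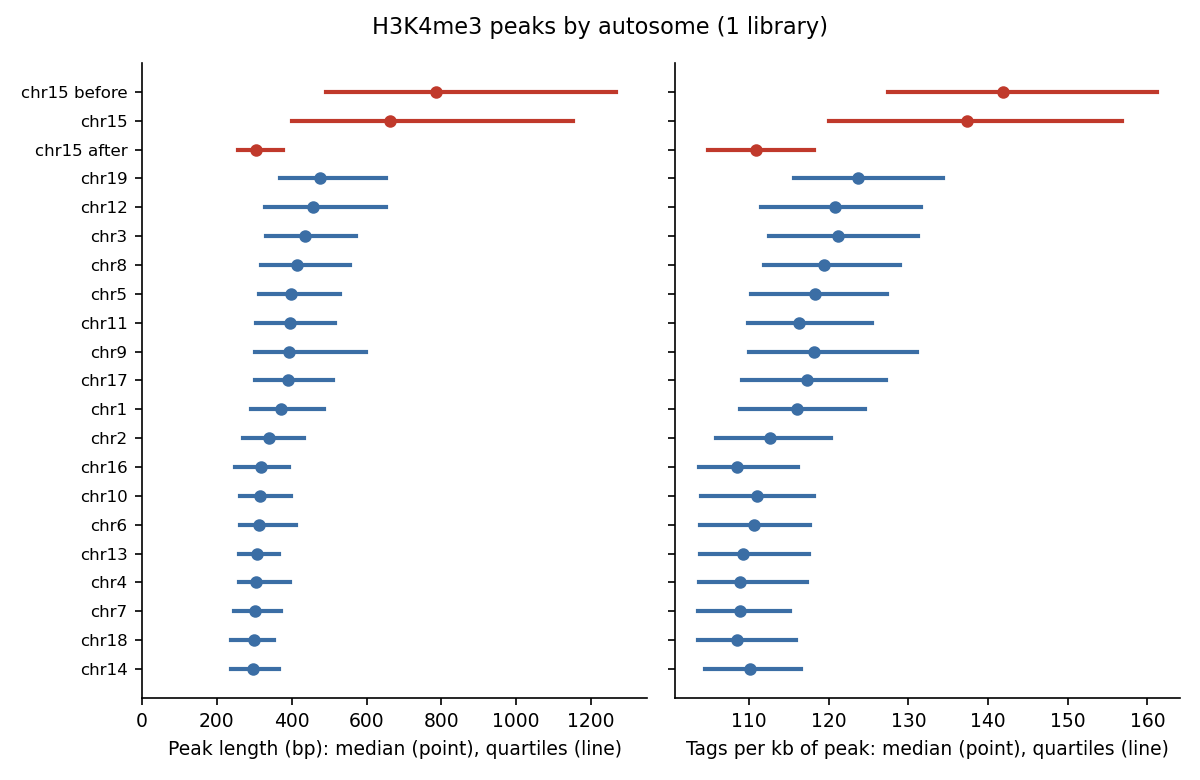
H3K4me3 peak length in bp (left) and tags per kb of peak (right) on each autosome, with points for medians and lines for quartiles of the peaks of 1 library. Chromosome 15 as a whole and its peaks before the change near 80 Mb (784.5 bp, 142 tags per kb) lie to the right of every other autosome, whereas its peaks after the change (305.5 bp, 111 tags per kb) lie among the other autosomes.

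The chromosome held 7.74% of autosomal H3K4me3 peaks (768 of 9917, Wilson interval 7.23 to 8.29%), but 15.1% of the base pairs in peaks and 19.3% of the tags in peaks (118942 of 616497, 19.2 to 19.4%). Peaks were also dense, with 7.46 per Mb against 3.89 per Mb on the other autosomes, counted from the chromosome start to the end of its most distal peak. Density alone did not set the chromosome apart, since chr19 (9.78 per Mb) and chr11 (8.72 per Mb) were denser.

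The excess was largest among the widest peaks. A length over 2 times the median of the other autosomes, that is over 758 bp, was reached by 334 of the 768 peaks (43.5%, 40.0 to 47.0%), against a background of 8.02% on the other autosomes. For the background index the same rule gave 189 peaks (24.6%, 21.7 to 27.8%) against 0.459%. For tags per kb it gave 18 peaks (2.34%, 1.49 to 3.67%) against 0.0656%. Peaks of at least 1000 bp made up 30.6% of chromosome 15 peaks (235) and 3.28% of the others (300). Of the 83 autosomal peaks of at least 2000 bp, 67 (80.7%, 71.0 to 87.8%) were on chromosome 15, and of the 7 of at least 5000 bp, 6 were.

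Extremes by tags and by enrichment did not coincide. Among the 20 autosomal peaks with most tags, 18 were on chromosome 15, as were 18 of the 20 longest and 14 of the 20 with most tags per kb. Of the 20 with highest fold enrichment, 1 was (5%), near the chromosome's share of 7.74% of all autosomal peaks. The longest peak elsewhere had 6443 bp (chr1) and 2 chromosome 15 peaks were longer. The highest value of tags per kb, 765, was on chr17, and no chromosome 15 peak reached it.

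**Figure D2:**
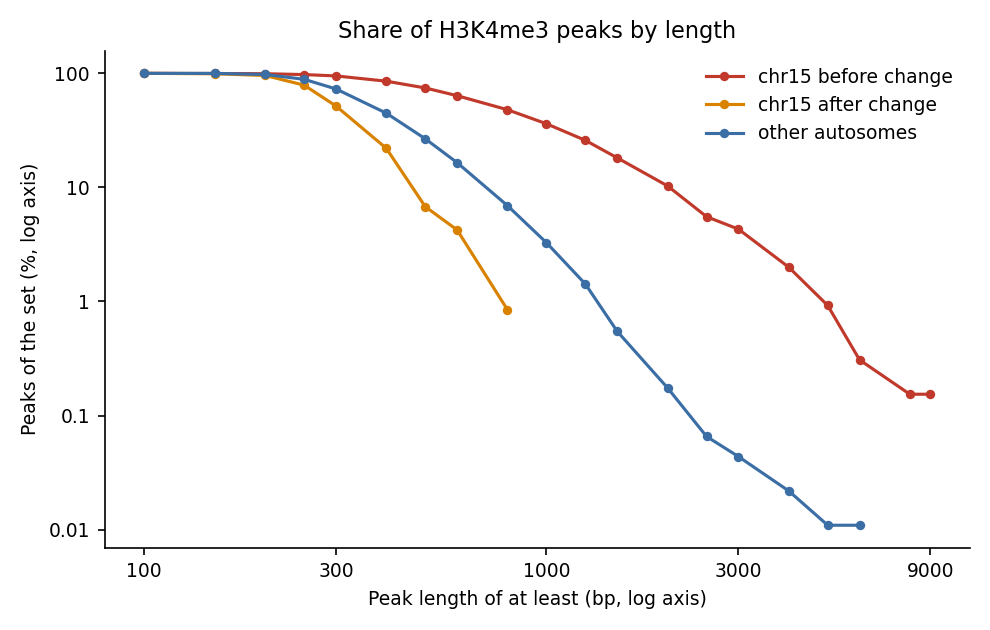
Share of H3K4me3 peaks (%, log axis) with at least the length on the x axis (bp, log axis), for chromosome 15 before and after the change near 80 Mb and for the other autosomes. At 1000 bp the shares are 36.2% before the change and 3.28% on the other autosomes, and no peak after the change reaches this length.

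The level of tags per kb differed along the chromosome, and the division of the peaks into 2 runs with the least sum of squares (on log2 tags per kb) fell near 80 Mb. It put 650 peaks before and 118 after, between chr15:79573087-79573390 (304 bp, 40 tags, 132 tags per kb) and chr15:79635262-79635619 (358 bp, 44 tags, 123 tags per kb), which are 61871 bp apart. Before the change the median peak had 784.5 bp, 112 tags, 142 tags per kb and a fold enrichment of 5.38. After it the median peak had 305.5 bp, 33 tags, 111 tags per kb and a fold enrichment of 8.46. Peaks before the change were thus longer by 2.57 times, richer in tags by 3.39 times, and had 1.28 times the tags per kb and 1.98 times the background index. Because the position was chosen for this difference, these ratios describe it and do not test it.

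The distal end looked like the other autosomes or lower. Its medians were 0.954 times theirs for tags per kb, 0.806 times for length and 0.853 times for the background index, and 1.15 times for fold enrichment. Its longest peak had 911 bp and its most tag-rich peak 106 tags. None of the 118 peaks reached 1000 bp (Wilson upper limit 3.15%), and 96.2% of the chromosome's peak tags lay before the change.

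The contrast was largest close to the change. The ratio was 1.28 over the whole chromosome and 1.40 over 5 Mb on each side (83 and 32 peaks, 153 and 110 tags per kb). Over 1 Mb on each side it was 1.57 (57 and 12 peaks, 169 and 108 tags per kb). The 5 Mb before the change included the 16 low peaks of chr15:76049785-78361705 (median 111 tags per kb), which the 1 Mb before it did not. Among the wide peaks of that 1 Mb lay a narrow one, chr15:79233826-79234053 (228 bp, 29 tags). Median length over 1 Mb was 899 bp before and 288 bp after. Within this stretch the last wide peaks were chr15:79377209-79378328 (1120 bp, 235 tags) and chr15:79488636-79490573 (1938 bp, 326 tags). The next was chr15:79500501-79500930 (430 bp, 84 tags), and after it came chr15:79572667-79573002 (336 bp, 43 tags, fold enrichment 10.76). These narrow peaks came before the fitted position. Divided by length in place of tags per kb, the peaks split at 79495537, with 647 peaks before it. No peak lay in the 71736 bp between 79500930 and 79572667. The first peaks after the fitted position had 27 to 44 tags and 266 to 358 bp.

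Restricting the peaks to a narrow range of lengths reduced the difference in tags per kb. Among peaks of 300 to 500 bp, the 135 before the change had a median of 127.5 tags per kb and the 53 after it 113, a ratio of 1.13. Lengths still differed within this range, with medians of 405 and 358 bp, also a ratio of 1.13. In the same peaks the background index was 21.6 and 13.6 tags per kb, a ratio of 1.58, and the fold enrichment 5.79 and 8.46. Against other autosomes the 188 chromosome 15 peaks of this length had 122 tags per kb and the 4263 others 115.

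Every chromosome can be divided at a best position, and the other autosomes gave smaller ratios. The ratio of the higher to the lower side was 1.28 on chromosome 15, 1.17 on chr9, 1.12 on chr12 and 1.01 to 1.08 on the other 16. In the share of the sum of squares that the division removed, chromosome 15 (19.5%) came after chr9 (25.8%) and chr12 (22.0%). A division into only 2 runs left most of the variation of chromosome 15 within them.

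Windows showed where the level was high. In 104 windows of 1 Mb, 70 held a peak and 50 held at least 5. Over those 50, median tags per kb ran from 105 to 176 and median length from 244.5 to 1577.5 bp. A median over 140 tags per kb was found in 18 windows before 80 Mb and in none of the 10 windows after it, which ran from 105 to 126 tags per kb and from 244.5 to 386.5 bp. The windows with most peaks started at 66 Mb (45 peaks), 78 Mb (44) and 61 Mb (42). In 2 Mb windows the picture was the same, with 12 of 34 windows over 140 tags per kb and 0 of the 8 after 80 Mb. The 2 Mb window with most peaks, 68, was that from 78 to 80 Mb, which spans the change.

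Few windows elsewhere in the genome matched these. Of the 716 autosomal 1 Mb windows with at least 5 peaks, 50 were on chromosome 15, yet it held 15 of the 20 with highest median tags per kb, 15 of the 20 with longest median length and 16 of the 20 with highest background index. The window with most tags per kb was on chr17 at 3 Mb (227 tags per kb), and the longest median length off chromosome 15 was on chr9 at 13 Mb (1341 bp).

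**Figure D3:**
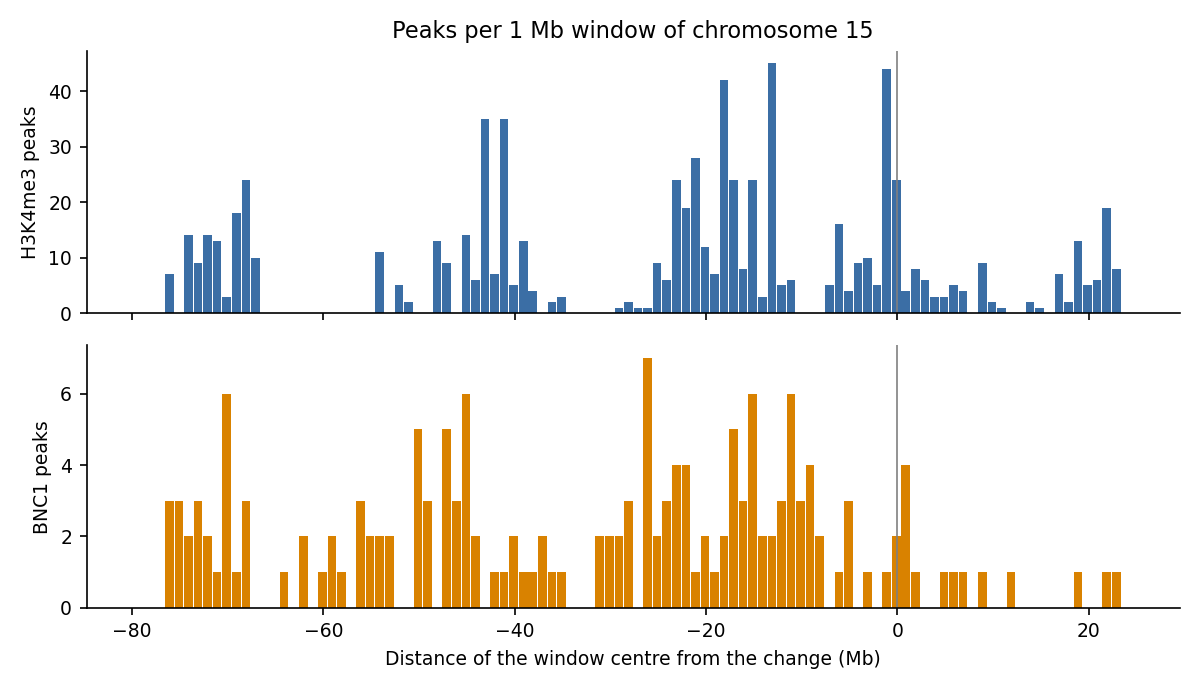
Number of H3K4me3 peaks (top) and BNC1 peaks (bottom) in each 1 Mb window of chromosome 15 against the distance of the window centre from the change (Mb, 0 at the vertical line). H3K4me3 peaks are gathered in runs of windows with up to 45 peaks separated by empty stretches, and BNC1 peaks are spread more evenly, with few after the change.

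Within the proximal part the peaks fell into blocks of different level. The peaks in order were divided into 12 blocks of at least 4 peaks by the same least squares rule. The number of blocks was chosen after the values were seen, and the edges use the tags per kb themselves, so block values are descriptive. The 12 blocks removed 66.5% of the sum of squares of log2 tags per kb. Repeating the division on the background index removed 80.6% of its own sum of squares and placed all 11 edges within 2 peaks of those from tags per kb. The index shares its numerator with tags per kb, and peak length their denominator, so these divisions are not independent. With peak length as the measure it was 10 of 11 edges.

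The longest block, chr15:3532217-54944510, held 285 peaks with a median of 566 bp, 73 tags and 131 tags per kb, above the medians of the other autosomes. At its distal edge the median length of 5 neighbouring peaks went from 371 to 1556 bp across a gap of 7910 bp. The next block, chr15:54952421-58704117, held 73 peaks with medians of 1064 bp, 156 tags and 153 tags per kb. It was followed by 7 very wide peaks at chr15:58718648-58938228, with a median of 3803 bp, 778 tags and 205 tags per kb. Past a gap of 47442 bp the level dropped back, and the 17 peaks of chr15:58985671-60971130 had medians of 561 bp, 68 tags and 120 tags per kb, close to the other autosomes in tags per kb.

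A second run of high blocks began at 60986887. The block chr15:60986887-61244696 (15 peaks) had medians of 876 bp and 146 tags per kb, and chr15:61257805-61456779 (17 peaks) had 3484 bp and 307 tags per kb. The block chr15:61460034-73343834 then held 149 peaks with medians of 1128 bp, 180 tags and 153 tags per kb. The second and seventh blocks, separated by more than 2 Mb that included both the highest and an intermediate block, had almost equal medians of tags per kb (153 and 153) and of the background index (31.9 and 32.2).

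Between 73.3 and 79.6 Mb, low and high blocks alternated. The 8 peaks of chr15:73554805-75751918 had a median of 268.5 bp, 29 tags and 110 tags per kb. The 6 peaks of chr15:75770651-75845569, which start 18732 bp further on, had 1391 bp, 224 tags and 159 tags per kb. The 16 peaks of chr15:76049785-78361705 were low again (285 bp, 31.5 tags, 111 tags per kb). The 55 peaks of chr15:78632530-79500930 were high (928 bp, 155 tags, 170 tags per kb), and the 120 peaks of the last block, from 79572667 on, were low (305.5 bp, 33 tags, 111 tags per kb). The 3 low blocks thus lay within 110 to 111 tags per kb, 13.5 to 13.9 in background index and 7.45 to 8.46 in fold enrichment. The gaps without peaks at the other 3 edges between 73.3 and 78.6 Mb measured 210970, 204215 and 270824 bp, so how steep the level was there could not be resolved. The change near 80 Mb was the most distal of these edges.

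**Figure D4:**
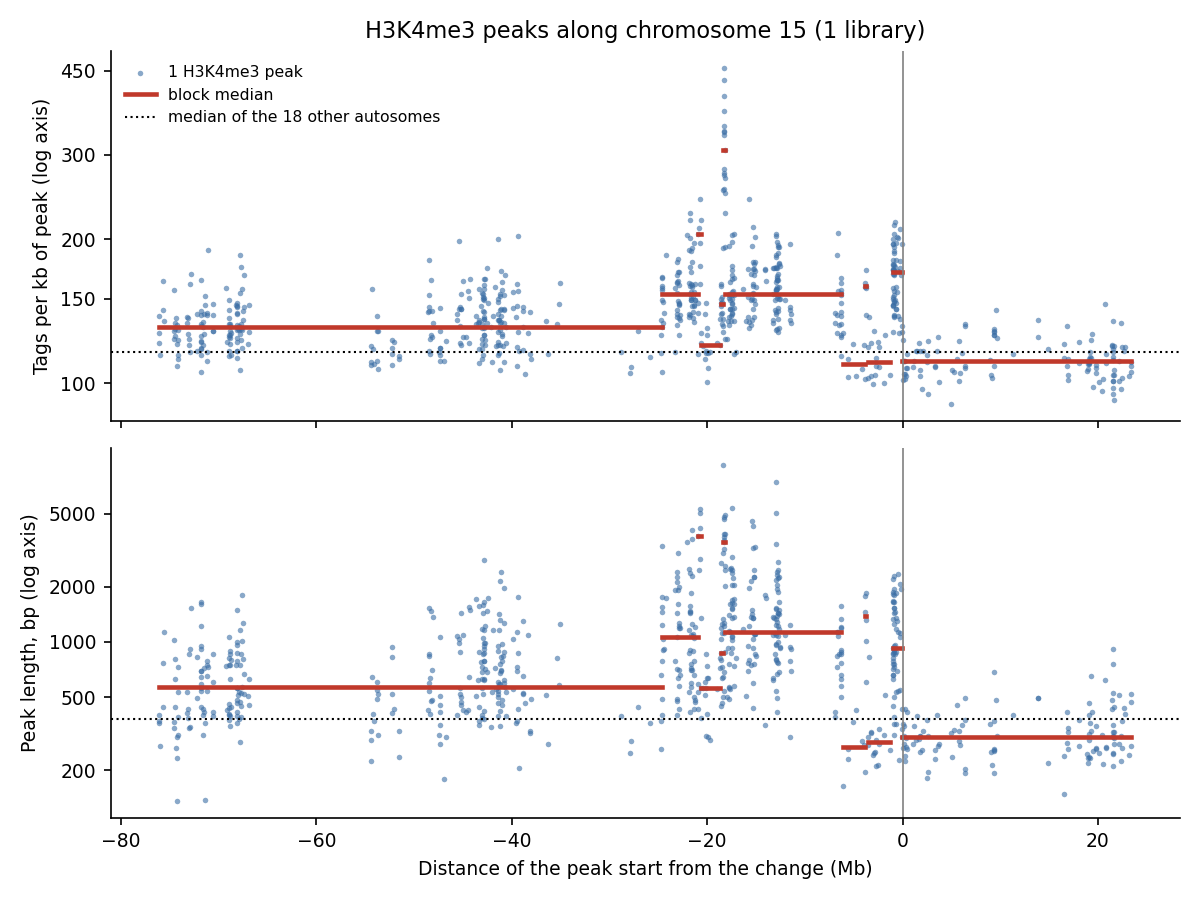
Tags per kb of peak (top, log axis) and peak length in bp (bottom, log axis) for each of the 768 H3K4me3 peaks of chromosome 15 against distance from the change (Mb, 0 at the vertical line). Red lines are medians of the 12 blocks and dotted lines the medians of the other autosomes, 116 tags per kb and 379 bp. Block medians differ from one block to the next, and low blocks before the change lie at the same level (110 and 111 tags per kb) as the block after it (111).

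Peaks starting from 61 to 63 Mb carried much of the signal of the chromosome. These 66 peaks were 8.59% of the chromosome's peaks and 17.3% of its peak base pairs, and held 27547 tags, 23.2% of the total (22.9 to 23.4%). Their median length was 1355.5 bp and their median was 153 tags per kb. Of the 18 chromosome 15 peaks past 2 times the other autosomes' median tags per kb, 16 started from 61 to 62 Mb and 1 from 58 to 59 Mb.

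The core of this region was the 17 peaks of chr15:61257805-61456779, which alone held 13.9% of the chromosome's peak tags. The peak with most length and most tags on the chromosome was chr15:61257805-61267030, with 9226 bp, 2335 tags, 253 tags per kb and a fold enrichment of 2.98. The peak with most tags per kb, 457, was chr15:61361753-61365605, with 3853 bp, 1759 tags, a fold enrichment of 6.67 and a score of 1767 (the deposited −log10 p-value multiplied by 10). Its neighbours chr15:61373179-61378001 (4823 bp, 1591 tags), chr15:61367056-61370539 (3484 bp, 1389 tags) and chr15:61341113-61345763 (4651 bp, 1268 tags) completed the 5 with most tags. These 5 peaks were the only chromosome 15 peaks with more tags than the richest peak elsewhere, which had 1220 (chr1). The tags of the first of them came with low enrichment, and the second combined many tags with an enrichment above the chromosome's median of 5.71.

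Narrower peaks filled the spaces between them. chr15:61371752-61373028 had 550 tags (431 per kb), chr15:61370554-61371668 had 414 (371 per kb) and chr15:61365649-61366191 had 187 (344 per kb). Background indices in the block ran from 68.4 to 117 tags per kb, against a median of 15.9 on the other autosomes. The median length of 5 neighbouring peaks went from 1115 to 3741 bp across 13108 bp at the proximal edge and from 3574 to 928 bp across 3254 bp at the distal edge. The peaks just outside were intermediate, with 3069 bp and a background index of 59.4 at chr15:61241628-61244696 and 2027 bp and 59.5 at chr15:61460034-61462060. The other peaks with most tags that started from 61 to 63 Mb were chr15:61391442-61395299 (1184), chr15:61451839-61456779 (1118), chr15:61345773-61349513 (1049), chr15:61378191-61381764 (910) and chr15:62114998-62120341 (900), the last of which lay outside the core.

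Wide peaks were not limited to that core. The 5 longest on the chromosome included chr15:66682727-66690140 (7414 bp, 1160 tags), its neighbour chr15:66676660-66681718 (5059 bp, 825 tags) and chr15:58833890-58839176 (5287 bp, 854 tags). The peaks of highest fold enrichment were others and mostly narrow. They were chr15:100299172-100299794 (13.84, 623 bp, 91 tags), chr15:52544046-52544488 (11.97), chr15:54922333-54922594 (11.90), chr15:25343918-25344559 (11.89) and chr15:79635262-79635619 (11.53). The value of 11.53 was shared by chr15:83180856-83181127, chr15:88959304-88959565 and chr15:93426491-93426985. None of these peaks lay in a high block. The peak of highest enrichment and all those at 11.53 lay after the change.

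Many of the peaks lay side by side. Of 767 neighbouring pairs on chromosome 15, 246 (32.1%, 28.9 to 35.5%) were less than 1 kb apart, against 21.6% on the other autosomes. Peaks were also denser on chromosome 15 (7.46 against 3.89 per Mb), and the part of density in this share was not tested. The share was 34.2% before the change and 20.5% after it. Joining such pairs left 522 regions on chromosome 15, the longest of 21262 bp against 9031 bp elsewhere. Peaks were absent from long stretches, the longest being 12.4 Mb from 12755159 to 25198740 and 6.17 Mb from 44580856 to 50747066.

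The BNC1 list held 166 peaks on chromosome 15 of 2578 in all, 6.50% of the autosomal peaks and 8.94% of their tags. Of these 2763 tags on chromosome 15, a pair of neighbouring peaks described below held 565 and 214. As a list from another antibody, the BNC1 list was not used to find the H3K4me3 blocks. Its peaks were small, with medians of 166 bp and 10 tags on chromosome 15 and 152 bp and 8 tags on the 2386 peaks of the other autosomes. A length over 1.5 times the median of the other autosomes (228 bp) was reached by 38 of the 166 (22.9%, 17.2 to 29.9%), against a background of 2.98%. More than 1.5 times their median tags was reached by 50 (30.1%, 23.7 to 37.5%), against 6.16%, and more than 1.5 times their median background index by 50 (30.1%), against 5.41%.

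Most long BNC1 peaks lay in blocks where H3K4me3 peaks were long. The 7 blocks whose median H3K4me3 length was over 2 times that of the other autosomes spanned 17.3 Mb and held 50 BNC1 peaks (2.90 per Mb), with medians of 236.5 bp (quartiles 183 and 321) and 16.5 tags. The other 5 blocks spanned 81.3 Mb and held 114 BNC1 peaks (1.40 per Mb), with medians of 156 bp (143 and 176.5) and 9 tags, near those of the other autosomes. In the long blocks 29 of 50 BNC1 peaks (58%) were over 228 bp, and in the others 8 of 114 (7.02%). The BNC1 background index had medians of 11.7 tags per kb in the long blocks and 7.09 in the others. With the long blocks pooled, BNC1 peaks were thus higher in length, tags and index, although not every long block held a BNC1 peak. The H3K4me3 peaks were higher there through the choice of blocks, which used their tags per kb and length. The tags of the input library were not analysed here, and the part of the background in these differences was not tested.

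The 50 BNC1 peaks of the long blocks came almost all from chr15:54952421-58704117 (11) and chr15:61460034-73343834 (38), and 4 of the 7 long blocks held none. BNC1 peaks had medians of 159.5 bp and 9 tags in chr15:3532217-54944510 (92 peaks), 269 bp and 22 tags in chr15:54952421-58704117 (11 peaks) and 132 bp and 9 tags in chr15:58985671-60971130 (3 peaks). In chr15:54952421-58704117 the 11 BNC1 peaks ran from 220 to 367 bp and from 15 to 26 tags. In chr15:58985671-60971130 the 3 ran from 97 to 159 bp and from 8 to 9 tags. In chr15:61460034-73343834 the medians were 234 bp and 15.5 tags (38 peaks), with ranges of 106 to 456 bp and 8 to 30 tags. The long blocks varied within, since 12 of these 38 BNC1 peaks lay in the stretch without H3K4me3 peaks from 68195372 to 72640002 and had medians of 169.5 bp and 9 tags. The block chr15:78632530-79500930, with 55 H3K4me3 peaks, had 1 BNC1 peak (233 bp, 19 tags). The order did not hold in every block, since the 4 BNC1 peaks of the low block chr15:73554805-75751918 had medians of 262 bp and 111.5 tags, above those of the long blocks with 38 and 1.

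**Figure D5:**
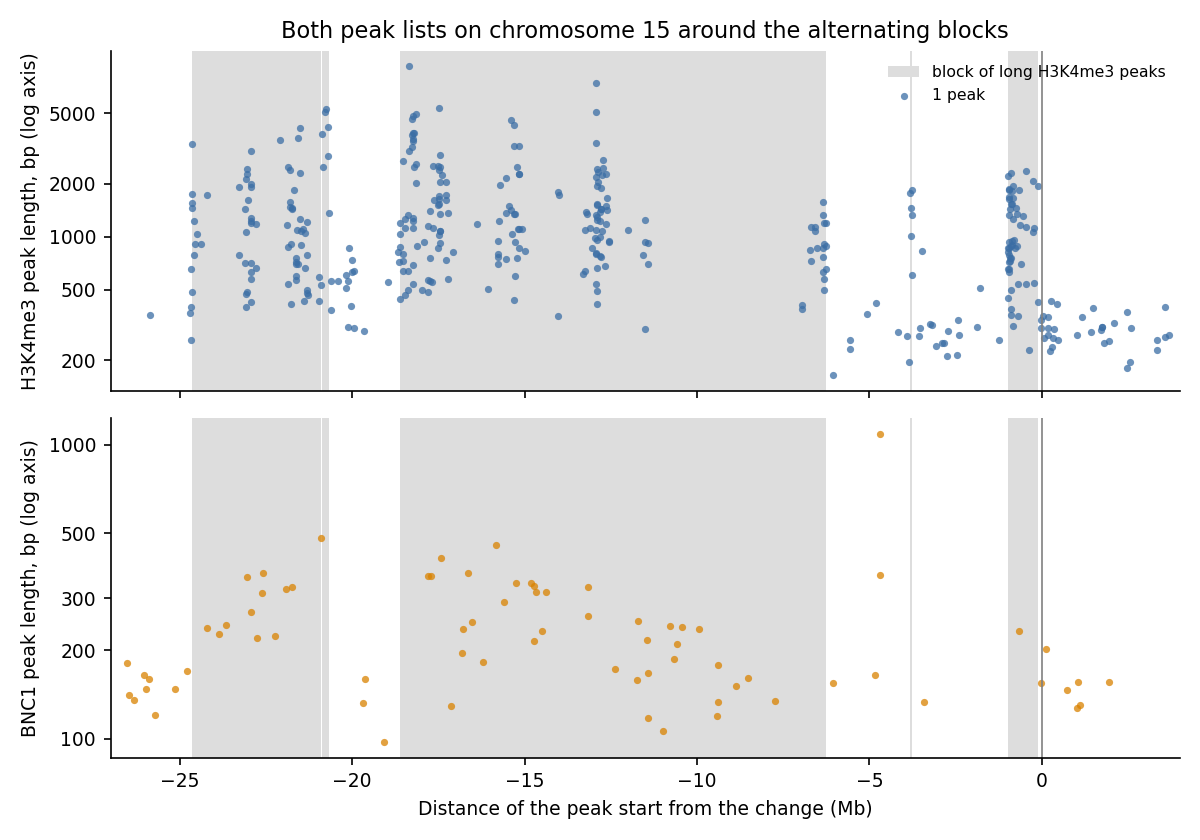
Length in bp (log axis) of H3K4me3 peaks (top) and BNC1 peaks (bottom) of chromosome 15 against distance from the change (Mb, 0 at the vertical line), with blocks of long H3K4me3 peaks shaded. BNC1 peaks in the shaded blocks have a median of 236.5 bp and those in the other blocks of the chromosome 156 bp, and the longest BNC1 peak (1091 bp) lies in an unshaded block.

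In 2 Mb windows with at least 3 peaks of each list (22 on chromosome 15), median lengths of the 2 lists had a Pearson correlation of 0.644 and a Spearman correlation of 0.699, and 0.605 and 0.665 without the 2 windows farthest from the median. On the other autosomes (265 windows) they were 0.333 and 0.0932. For the background index the 2 correlations were −0.0615 and 0.584 on chromosome 15 and 0.0495 and 0.475 elsewhere, so the rank correlations lay closer than for length. For tags the chromosome 15 values were −0.109 and 0.700 and the others 0.325 and 0.258, and BNC1 medians on chromosome 15 ran from 8 to 214 tags, the highest in the window that holds the tag-rich pair of BNC1 peaks described next. Windows share a library and a background, and these correlations are descriptions.

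The exceptions were a pair of BNC1 peaks in a low block. chr15:74916390-74917480 had 565 tags over 1091 bp and a fold enrichment of 6.16, and chr15:74915951-74916310 had 214 tags over 360 bp and a fold enrichment of 2.71. They lay in chr15:73554805-75751918, with no H3K4me3 peak within 117395 bp. The next BNC1 peaks by tags, chr15:58706064-58706546 and chr15:63764151-63764606, had 30 each. They were followed by chr15:56563561-56563914 and chr15:62191967-62192378 with 26 each. All of these except chr15:58706064-58706546 lay inside high H3K4me3 blocks. The BNC1 peaks with highest fold enrichment were small, with 8 to 10 tags and an enrichment of 11.71 (chr15:20960936-20961076, chr15:24332755-24332929, chr15:29460271-29460464 and chr15:34483760-34483936) or 8 tags and 11.44 (chr15:60526965-60527061).

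Before the change near 80 Mb there were 152 BNC1 peaks (exact Poisson interval 129 to 178), 1.91 per Mb, and after it 14 (7.65 to 23.5), 0.598 per Mb, a ratio of 3.19. H3K4me3 peak density differed less, with 8.17 and 5.04 per Mb. The median BNC1 peak had 170 bp before and 146.5 bp after, with 1.09 times the tags per kb. With BNC1 peaks called at 10 times lower p-values, 31 lay before and 1 after, a ratio of 9.11. BNC1 peaks were also found where H3K4me3 peaks were absent, as the 34 of 104 windows of 1 Mb without an H3K4me3 peak held 44 of the 166 BNC1 peaks, in 19 of those windows. The stretch without H3K4me3 peaks from 12755159 to 25198740 held 12 BNC1 peaks (0.964 per Mb).

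Direct overlap was rare. On chromosome 15, 5 of 166 BNC1 peaks (3.01%, 1.29 to 6.86%) overlapped an H3K4me3 peak by 1 bp or more. On the other autosomes 1.30% did, just above the lower limit of that interval. Chromosome 15 held 723737 of the 4777753 autosomal base pairs in H3K4me3 peaks, and the overlap shares were not adjusted for this. The pairs were chr15:3928984-3929113 with H3K4me3 chr15:3928942-3929711 (126 tags), chr15:5489033-5489215 with chr15:5488993-5489304 (35 tags), chr15:56665454-56665722 with chr15:56664192-56667238 (453 tags), chr15:78939729-78939961 with chr15:78938581-78940423 (361 tags) and chr15:81560833-81560988 with chr15:81560819-81561075 (25 tags). Of the H3K4me3 partners 2 were wide peaks of high blocks and 1 lay after the change. The 7 BNC1 peaks starting from 61 to 63 Mb (median 356 bp, 23 tags) all lay outside the core of wide H3K4me3 peaks, the nearest being chr15:61815222-61815577.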

How the data were processed

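ChIP-seq was done on ovary of 8 weeks old wild type mice (1 library each for H3K4me3, BNC1 and input). Reads were aligned with Bowtie2 to mm9 and peaks called with MACS2 2.1.0 by the authors, per the submitters' processing notes. The columns are those written by MACS version 1, so the caller settings are uncertain. The labels name sonicated nuclei, whereas the study's methods also describe micrococcal nuclease. The BNC1 antibody is from Huaan per the labels and from ThermoFisher in the methods, so which antibody gave the BNC1 list is uncertain. The deposited tag count of a peak is not normalized, and total depth is unknown. The deposited fold enrichment is a ratio, the deposited score is −log10 of the p-value multiplied by 10, and the deposited false discovery rate, in percent, was not used in any result. Weakest scores were 50.01 (H3K4me3) and 40.01 (BNC1). Smallest peaks held 16 and 8 tags.

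No peak was filtered out. The single change and the 12 blocks were found by least squares on log2 tags per kb, with at least 20 and 4 peaks a run. Both searches were first tried on simulated independent values with planted steps. The simulated blocks were longer than most reported here and their number was given, so the edges of short blocks were not tested. Overlap needed 1 bp. Named peaks were the 5 longest, with most tags, most tags per kb or highest fold enrichment in each list, up to 10 with most tags from 61 to 63 Mb, the 5 on each side of the change, and BNC1 peaks overlapping H3K4me3. Peaks tied with the last of 5 were named as well. Shares have Wilson intervals and counts exact Poisson intervals. Python 3.11.15, numpy 2.4.6, pandas 2.3.3, scipy 1.17.1 and matplotlib 3.10.9 were used. The members and lists were chosen with earlier results of these data known. Alternatives changed the peak set, merging, length class, comparison set, window and measure.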

Additional observations from a re-analysis of the deposited data

How the results depend on the processing

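Of 55 alternative values, 32 stayed within set limits of the main value, 23 moved and 0 reversed. The limits were 1 Mb for the position and a factor of 1.5 for numbers of peaks. For the rest they were 95% intervals, taken across peaks for medians. The change stayed near 80 Mb under every alternative, including other measures. The chromosome 15 ratio of median tags per kb, 1.18, was 1.15 with peaks under 1 kb apart merged, 1.07 for peaks of 300 to 500 bp, 1.34 as summed tags over summed length and 1.11 against chr19. Across the change, 1.40 over 5 Mb became 1.28 merged, 1.18 at 300 to 500 bp, 1.56 over 2 Mb and 1.28 over the whole chromosome. The 18 peaks past 2 times the median of tags per kb became 8 merged, 0 at 300 to 500 bp, 95 past 1.5 times and 4 past 3 times. These were out of 522, 188, 768 and 768 chromosome 15 peaks. The other autosomes then gave 6 of 7180, 0 of 4263, 45 of 9149 and 4 of 9149. Merging also took the density ratio from 1.92 to 1.66 and the length ratio from 1.75 to 2.11. The 61 to 63 Mb share of tags, 23.2%, was 24.3% with peaks of 10 times lower p-values and 24.99% from 60 to 64 Mb. The BNC1 ratio of tags per kb, 1.09, was 1.15 with stricter peaks, 1.52 when summed (a sum that includes the pair of tag-rich peaks), 1.22 within 20 Mb and 1.07 without overlapping peaks. The stricter BNC1 set held 32 peaks, 31 before and 1 after the change, and gave a density ratio of 9.11 in place of 3.19. Overlapping BNC1 peaks numbered 3 with stricter peaks and 9 within 1 kb, in place of 5. The ratio of BNC1 lengths between long and other blocks, 1.52, ran from 1.45 to 1.53 under 6 alternatives added after the data were seen. No paired analysis was possible because each antibody had 1 library, and no replicate could be left out. Total depth and the input's own tags were not analysed here.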
